A study of Saccharomyces cerevisiae with 37 samples.

Results

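Transcripts of the 10 histone genes of budding yeast (Saccharomyces cerevisiae) were followed in wild-type cells and in a strain carrying a gene array for 60 min after copper was added. The 10 genes were taken by name and locus tag from a table of 6464 genes. They encode histone H2A (HTA1, YDR225W, and HTA2, YBL003C), H2B (HTB1, YDR224C, and HTB2, YBL002W), H3 (HHT1, YBR010W, and HHT2, YNL031C), H4 (HHF1, YBR009C, and HHF2, YNL030W), the H2A variant H2A.Z (HTZ1, YOL012C) and the linker histone H1 (HHO1, YPL127C). The first 8 are called the core histone genes here. All 10 were present in all 37 libraries and all 10 passed the filter on low counts that left 4995 genes for testing.

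The wild type (WT, strain BMY1051) and the array strain (BMY3661) both have the BY4741 background and are labelled as haploid MAT a. The array strain carries GFA1 as a 25x array under the copper-responsive CUP1 promoter (pCUP1-GFA1), which the study used to follow factors that join mRNA at a site of transcription. Cells grown overnight in YPD, a rich medium, were moved to copper-free minimal medium for some 2 h. A first sample (0 min) preceded copper sulfate; further ones came every 5 min up to 30 min and at 45 and 60 min. The concentration is 500 uM in the treatment note and 1 label field disagrees, giving that figure in mM. Each strain had 2 replicate series over the 9 times, and WT had 1 more library (replicate 3) at 0 min, which made 19 WT and 18 array libraries. The replicate numbers were read as cultures. The columns of array replicate 2 are named for another strain number than its label, and it is not known whether it was a separate isolate. All later samples had copper, and its effect cannot be told apart from that of time in the new medium. No arrest and release of the cell cycle is described, and no measure of DNA content or budding was used here.

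Core histones form the octamer around which nuclear DNA is wrapped, and H2A.Z replaces H2A in nucleosomes near gene starts. In budding yeast the core histone genes are transcribed in late G1 and S phase, when DNA is replicated, and their summed transcript level is therefore used as a readout of S phase. The HIR complex, Asf1 and Rtt106 repress most of these genes outside S phase, and Spt10, which binds a repeated element upstream of them, together with Spt21 and the factors SBF and MBF, takes part in activating them.

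The 8 core histone genes lie in 4 divergent pairs, each with an H2A and an H2B gene or an H3 and an H4 gene on either side of 1 intergenic region (genome R64). The HTB1-HTA1 region spans chrIV:914713-915529 (817 bases), the HTA2-HTB2 region chrII:235793-236491 (699 bases), the HHF1-HHT1 region chrII:255685-256330 (646 bases) and the HHT2-HHF2 region chrXIV:576051-576726 (676 bases). HTZ1 lies at chrXV:303579-303983 and HHO1 at chrXVI:308828-309604, both on the minus strand and away from the other 8. The paired element bound by Spt10 was searched on both strands as TTCCNNNNNNTTCNC. In the 500 bases before the start codon it was found for 8 of 8 core histone genes and for neither HTZ1 nor HHO1, beside 174 of 6000 genes (2.9%) with such a window. The element was already known from upstream of the core histone genes, so these counts describe its place and are no test. Paired genes share their matches, so the 8 genes hold 5 separate matches in 4 regions. The stretches around them are shown because they hold the element that the 8 core histone genes share. They are read from the plus strand of the RefSeq R64 genome, with each match in capitals, at chrIV:915074-915191, chrII:236068-236162, chrII:255904-255998 and chrXIV:576306-576400, in that order.
HTB1-HTA1: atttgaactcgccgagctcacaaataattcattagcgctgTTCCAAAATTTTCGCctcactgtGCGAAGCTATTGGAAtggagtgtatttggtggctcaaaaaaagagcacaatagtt
HTA2-HTB2: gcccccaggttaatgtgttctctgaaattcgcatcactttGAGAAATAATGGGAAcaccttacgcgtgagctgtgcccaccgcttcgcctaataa
HHF1-HHT1: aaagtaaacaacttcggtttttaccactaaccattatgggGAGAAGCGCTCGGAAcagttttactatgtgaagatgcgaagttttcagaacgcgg
HHT2-HHF2: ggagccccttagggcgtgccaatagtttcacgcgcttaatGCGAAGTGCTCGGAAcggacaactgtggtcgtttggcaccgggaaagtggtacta
The HTB1-HTA1 region held 2 matches in opposite orientation and the other 3 regions held 1 each. The last match lay 378, 369, 372 and 366 bases before the start codon of the right-hand gene of each pair (HTA1, HTB2, HHT1 and HHF2). Within the same 500 bases, the SBF motif CNCGAAA was found for 3 of 8 core histone genes against 22% of all genes, and the MBF motif ACGCGT for 2 of 8 against 5.42%. HTZ1 and HHO1 each held 1 SBF match and 0 MBF matches. A match is a stretch of letters and was not tested as a site.

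The libraries held 305028 to 887971 counts in genes (median 577369), and 36.6% to 54.6% of the listed reads fell in genes. WT replicate 1 at 0 min had the lowest value of both and stood apart: its chi-square per degree of freedom against the other replicates of its group was 30.1 and 35.3, beside at most 10.8 for any other pair of replicates. Histone gene results of the WT windows against 0 min are therefore also given without it. Those of SAG1 and of the other gene lists below are given only with it. The 10 histone genes together had 425 to 2167 counts per library. A count of 3 corresponded to between 3.16 and 7.95 CPM (counts scaled to library size). GFA1, the gene on the array, had 32.7 to 342 CPM in WT and 1794 to 21335 CPM in the array strain, without overlap. In the array strain GFA1 was at 1794 and 1974 CPM at 0 min and highest at 25 to 30 min (15353 to 21335 CPM). At 45 to 60 min it was at 7959 to 11855 CPM. Its relation to the histone levels below was not tested. The label MAT a was checked against 6 a-cell genes, all of them detected in both strains, whose summed level was 76.9 to 460.3 CPM in WT and 995 to 2600 CPM in the array strain. Of 4 alpha-cell genes looked up by name, 2 were matched. The alpha-factor genes MFALPHA1 and MFALPHA2 were not, so their levels were not checked. STE3 had 6 counts over all WT and 5 over all array libraries. SAG1, the alpha-agglutinin gene, had 283 and 292 counts and was at 0 in no library, and it rose in WT at 10 to 20 min (log2 change 1.01) and at 25 to 30 min (1.17) against 0 min. The strains therefore differed in a-cell transcripts as well as in GFA1, and the part of that difference in the strain comparisons below was not tested. CPM here are 3′ tag counts scaled by library size with TMM factors; they were compared between libraries and not between genes of different pairs.

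The summed level of the 8 core histone genes went from 814 to 3408 CPM across the 37 libraries. In the array strain it was 2781 and 2845 CPM at 0 min (replicates 1 and 2), 2586 and 3261 CPM at 5 min, and 2294 to 3408 CPM in the 6 libraries of 10 to 20 min (median 2627). At 25 min it was 876 and 1210 CPM, at 30 min 814 and 979 CPM, at 45 min 2084 and 1268 CPM, and at 60 min 1986 and 1645 CPM. All 4 array libraries of 25 to 30 min thus lay below every other array library. In WT the sum was 846, 2430 and 1225 CPM at 0 min (replicates 1, 2 and 3), 1730 and 2987 CPM at 5 min, and 1613 to 3147 CPM at 10 to 20 min (median 2360.1). WT had 838 and 3273 CPM at 25 min, 2182 and 1692 CPM at 30 min, 1723 and 1232 CPM at 45 min, then 1670 and 1749 CPM at 60 min. WT replicate 1 lay below replicate 2 at each of the 6 times from 0 to 25 min. The 6 lowest of the 37 libraries were the 4 array libraries of 25 to 30 min, WT replicate 1 at 25 min and WT replicate 1 at 0 min. Fewer cells with these transcripts and less of them per cell cannot be told apart in bulk RNA.

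**Figure D1:**
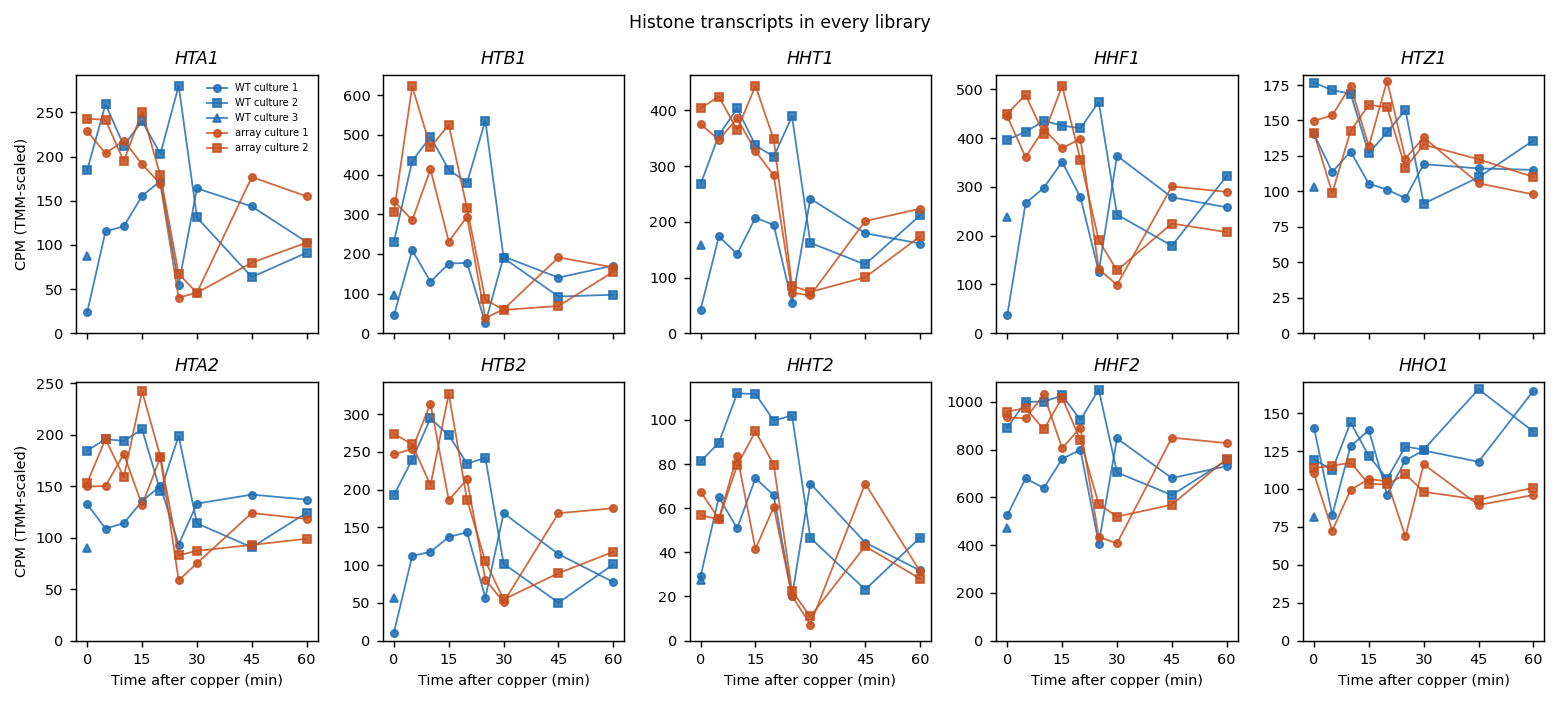
Level of each histone gene (CPM, vertical axis from 0) against time after copper (min) in every library, with WT in blue and the array strain in orange and 1 line per replicate. In the array strain the 8 core histone genes drop at 25 and 30 min, where HHT1 is at 67.8 to 85.1 CPM against 375 and 403 CPM at 0 min; HTZ1 and HHO1 show no such drop.

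By the order of window means, the array strain had its highest core histone sum at 0 min (2813 ± 45.1 CPM, SD, n = 2) and at 10 to 20 min (2747 ± 417 CPM, SD, n = 6). These neighbours differed by less than the spread between libraries. The late window, 45 to 60 min, followed (1746 ± 370.0 CPM, SD, n = 4), and the middle window, 25 to 30 min, was lowest (970 ± 174 CPM, SD, n = 4). In WT the order was 10 to 20 min (2415 ± 635 CPM, SD, n = 6), 25 to 30 min (1997 ± 1016 CPM, SD, n = 4), 45 to 60 min (1593 ± 243 CPM, SD, n = 4) and 0 min (1500 ± 827 CPM, SD, n = 3). No neighbours in the WT order differed beyond their spread.

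Among the comparisons of windows within a strain, the core histone genes had their largest median change in the array strain between 0 min and 25 to 30 min. There, 4 of the 10 histone genes were called, all lower: HTA1, HHT1, HHT2 and HHF1, 1 or both genes for H2A, H3 and H4. Among all genes tested, 2.14% were called in this comparison and 1.12% were called lower (edgeR quasi-likelihood test, Benjamini-Hochberg adjusted p under 0.05). The median log2 fold change of the 8 core histone genes was -2.02, beside -0.00058 over all genes tested. Every array library of 25 to 30 min lay below both array libraries of 0 min for all 8 core histone genes and for HTZ1, a pattern that 22.5% of all genes tested also showed.

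Among the H2A genes, HTA1 had 229 and 243 CPM at 0 min, 40.4 and 67.2 CPM at 25 min, then 46.0 and 45.8 CPM at 30 min in the array strain. Both replicates were low at both times, and HTA1 fell 4.75-fold (log2 change -2.25, SE 0.51, edgeR adjusted p = 0.0201). Its paralog HTA2 had 149.7 and 153 CPM at 0 min, 58.6 and 82.9 CPM at 25 min, then 75.1 and 87.2 CPM at 30 min. The HTA2 groups did not overlap either, but its log2 change of -1.001 (SE 0.32) was not called (edgeR adjusted p = 0.0826). Neither H2B gene passed the test. HTB1 had 334 and 305 CPM at 0 min, 38.4 and 85.1 CPM at 25 min, then 60.5 and 58.9 CPM at 30 min, with a log2 change of -2.40 (SE 0.70, edgeR adjusted p = 0.0659). HTB2 had 247 and 274 CPM at 0 min, 80.8 and 105 CPM at 25 min, then 50.8 and 54.5 CPM at 30 min, with a log2 change of -1.89 (SE 0.56, edgeR adjusted p = 0.0697). Of these 2 genes only HTB1 had a larger standard error than every called gene.

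Both H3 genes were called. HHT1 had 375 and 403 CPM at 0 min, 72.7 and 85.1 CPM at 25 min, then 67.8 and 74.1 CPM at 30 min, and fell 5.19-fold (log2 change -2.38, SE 0.52, edgeR adjusted p = 0.0170). HHT2, which gives the same H3 protein, had 67.5 and 56.9 CPM at 0 min, 20.2 and 22.4 CPM at 25 min, then 7.26 and 10.9 CPM at 30 min. It fell 4.40-fold (log2 change -2.14, SE 0.58, edgeR adjusted p = 0.0487), from the fewest counts of the 10 genes (3 to 67 per library, median 32). Of the H4 genes, HHF1 had 444 and 450.0 CPM at 0 min, 131 and 190.4 CPM at 25 min, then 99.3 and 129 CPM at 30 min, and fell 3.30-fold (log2 change -1.72, SE 0.46, edgeR adjusted p = 0.0455). Its paralog HHF2 had 935 and 959 CPM at 0 min, 434 and 571 CPM at 25 min, then 407 and 519 CPM at 30 min. Its log2 change of -0.97 (SE 0.28) was not called (edgeR adjusted p = 0.0621). The H2A.Z and H1 genes had smaller estimates, with log2 changes of -0.19 for HTZ1 (95% interval -0.67 to 0.28, edgeR adjusted p = 0.648) and -0.20 for HHO1 (95% interval -0.64 to 0.24, edgeR adjusted p = 0.601).

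**Figure D2:**
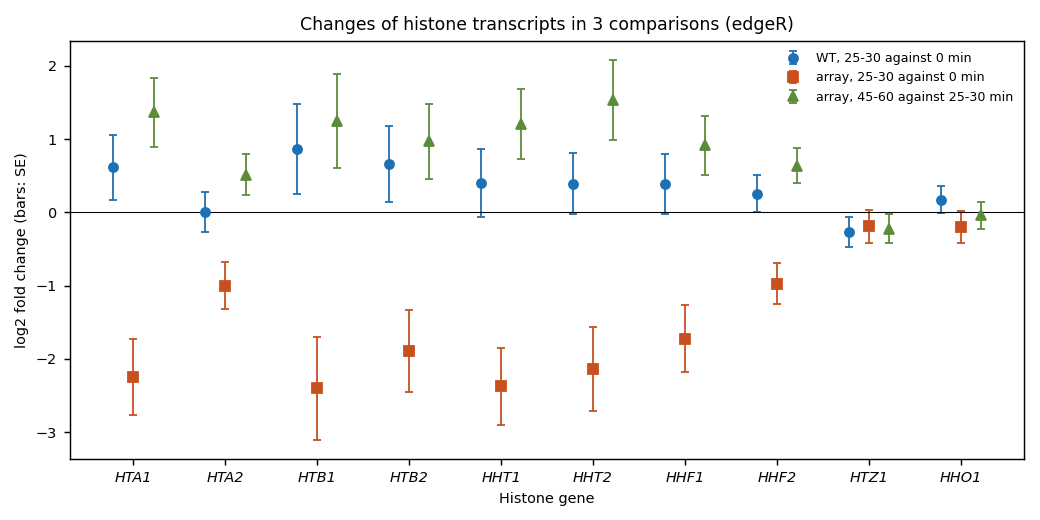
Log2 fold change (points) with its standard error (bars) for the 10 histone genes in WT at 25 to 30 against 0 min (blue), in the array strain at 25 to 30 against 0 min (orange) and in the array strain at 45 to 60 against 25 to 30 min (green). The orange points of the 8 core histone genes lie between -2.40 and -0.97, whereas those of HTZ1 and HHO1 lie at -0.19 and -0.20.

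Of the 4 calls, HHT2 and HHF1 lay close to the threshold (edgeR adjusted p = 0.0487 and 0.0455). Those of HTA1 and HHT1 lay further below it (edgeR adjusted p = 0.0201 and 0.0170). With culture as a block, since each culture was sampled over time, 8 of 10 were called, and DESeq2 called 7. The difference between the array replicates was only weakly correlated between times (median r 0.0730). None was called without any 1 of the 6 array libraries of 0, 25 and 30 min or without either array replicate, although the log2 change of HTA1 then stayed between -2.43 and -2.07 in all 8 of these fits. Without WT replicate 1 at 0 min, which enters only through the shared estimate of spread, 8 were called.

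The share of reads that fell in genes moved with the fall. It was 52.3% and 52.4% in the array libraries of 0 min, 40.8% to 45.3% at 25 to 30 min, and 47.1% to 48.2% at 45 to 60 min. The gene counts of the same windows were 616894 and 662865, 402378 to 498087, and 514925 to 553286. Over the 37 libraries, the log2 of the core histone sum and this share had a Pearson r of 0.757 (Spearman 0.738). The libraries share cultures, so the correlation is given as a description. In WT, replicate 1 at 0 min had the lowest share of all, 36.6%, with a core sum of 846 CPM. Replicate 1 at 25 min had 48.6% in genes with a core sum of 838 CPM, and replicate 3 at 0 min had 54.6%, the highest share, with 1225 CPM. In the array strain the share went with the window, so its part there cannot be told apart from that of time. A fit of groups takes the slope of the share only from differences between replicates of a group. These were largest at 0 min in WT (36.6%, 52.6% and 54.6%). When the share was put into the fit as a covariate, none of the 10 genes was called, and the core median of the array strain at 25 to 30 min became -0.86. The log2 change was then -0.98 for HTA1 (adjusted p = 0.334), -0.99 for HHT1 (0.307), -1.31 for HHT2 (0.276), -0.30 for HHF1 (0.731) and -0.0048 for HTB2 (1.00), all by edgeR.

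**Figure D3:**
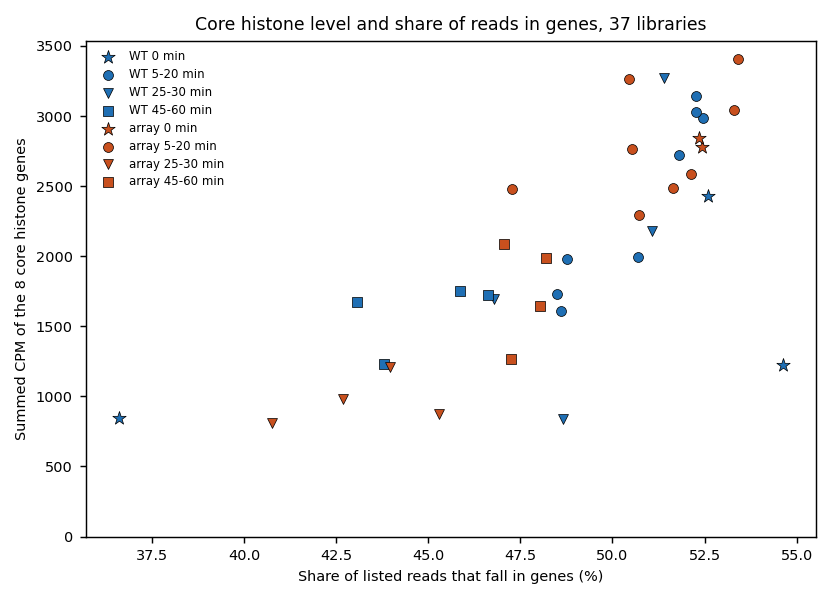
Summed CPM of the 8 core histone genes (vertical axis from 0) against the share of listed reads that fall in genes (%), 1 point per library, with WT in blue and the array strain in orange and the time window given by the symbol. The 4 array libraries of 25 to 30 min have 40.8% to 45.3% in genes and 814 to 1210 CPM, and the 3 WT libraries with the lowest sums lie at 36.6%, 48.6% and 54.6%.

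**Figure D4:**
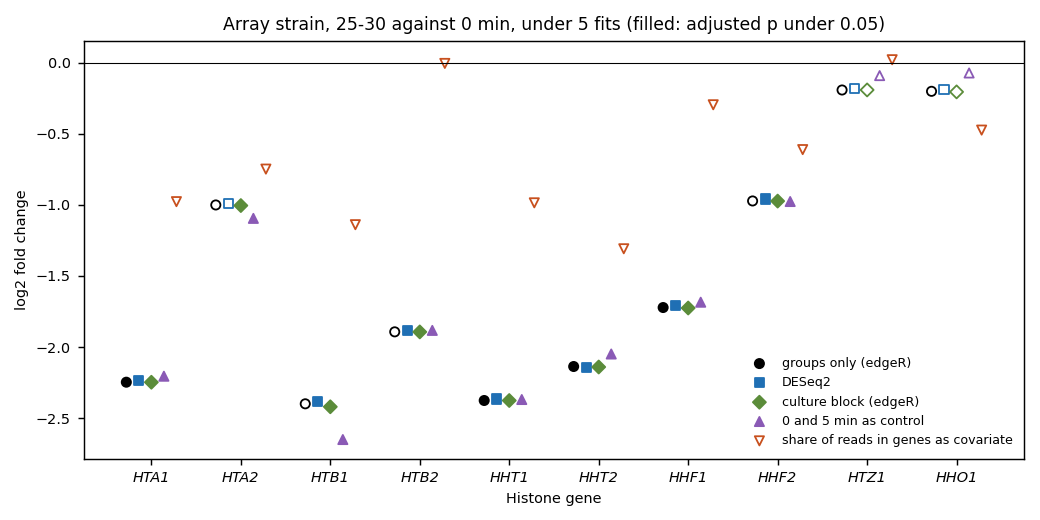
Log2 fold change of each histone gene in the array strain at 25 to 30 against 0 min under 5 fits, with filled symbols where the adjusted p is under 0.05. The first 4 fits give similar values and differ in how many genes they call (4, 7, 8 and 8), and the fit with the share of reads in genes as covariate calls none.

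At 45 to 60 min the core histone sum of the array strain lay above its values of 25 to 30 min and below those of 0 min in all 4 libraries. HTA1 had 177 and 79.9 CPM at 45 min, then 155 and 103 CPM at 60 min, all above its 4 values of 25 to 30 min. HHT1 had 201 and 100.4 CPM at 45 min, then 223 and 174 CPM at 60 min, also above all 4. In all, 5 of the 8 core histone genes had every late library above every middle one, which 8.65% of all genes tested also had. Against 25 to 30 min, 0 of 10 histone genes were called by edgeR (0.601% of all genes tested were), with 5 at an unadjusted p under 0.05. The core median was 1.09, and the log2 changes were 1.54 for HHT2 (SE 0.55, edgeR adjusted p = 0.195), 1.37 for HTA1 (SE 0.47, edgeR adjusted p = 0.181) and 1.20 for HHT1 (SE 0.48, edgeR adjusted p = 0.236). DESeq2 and the block fit also called 0, and 6 were called without WT replicate 1, whose libraries enter only through the shared estimate of spread.

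Set against 0 min, the late array libraries were lower, but 0 of 10 genes were called by edgeR (0.18% of all genes tested were), with 1 at an unadjusted p under 0.05 and 0 by DESeq2. The core median was -0.84, and 7 of 8 core histone genes had every late library below both libraries of 0 min, as did HTZ1 and HHO1, beside 15% of all genes tested. HHT1 had the smallest p (log2 change -1.17, 95% interval -2.19 to -0.15, edgeR adjusted p = 0.686).

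At 10 to 20 min against 0 min, 0 of 10 genes were called in the array strain by edgeR (0.0601% of all genes tested were), 0 had an unadjusted p under 0.05, DESeq2 called 0, and the core median was -0.09. The 95% interval for HTA1 was -1.13 to 0.65 and for HHT1 -1.08 to 0.83 on the log2 scale. Changes within those bounds are therefore not excluded for these genes, and the bounds are no limit of detection. Over all 8 later times together, the array time course called 0 of 10 (0.621% of all genes tested), although all 8 core histone genes had an unadjusted p under 0.05 and HTZ1 and HHO1 did not. With culture as a block it called 2.

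In WT no histone gene passed the test in any window. At 10 to 20 min against 0 min, 0 of 10 were called by edgeR (13.6% of all genes tested were), with 3 at an unadjusted p under 0.05 and 0 by DESeq2, and the core median was 0.78. HTB2 had 10.6, 193 and 56.9 CPM in the 3 libraries of 0 min and 118 to 294 CPM (median 189) at 10 to 20 min. The groups overlapped, and the log2 change of 1.14 (SE 0.48) had an edgeR adjusted p of 0.11. HHT1 had 42.4, 267 and 158 CPM at 0 min and 142 to 403 CPM (median 262) at 10 to 20 min, with a log2 change of 0.73 (SE 0.43, edgeR adjusted p = 0.267). Within cultures, 7 of 8 core histone genes, all but HTA2, were higher at all 3 of these times than at 0 min of the same culture in both WT replicates, and the fit with culture as a block called 0. The library of WT replicate 2 at 0 min decided how far the early libraries stood above 0 min: without it the core median was 1.42 and 6 genes were called, whereas without WT replicate 1 at 0 min the median was 0.41 and 0 were called. Without WT replicate 1 at every time 4 were called, and without WT replicate 2 at every time 2 were called.

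At 25 to 30 min in WT, the histone genes differed more between replicates than between times. HTA1 had 54.9 and 280.1 CPM at 25 min, then 164 and 131 CPM at 30 min, beside 23.9, 185 and 87.5 CPM at 0 min. HHT1 had 54.9 and 389 CPM at 25 min, then 241 and 162 CPM at 30 min. HTB1 had 25.6 and 536 CPM at 25 min, and HHF2 had 406 and 1051 CPM. Against 0 min, edgeR called 0 of 10 (10.2% of all genes tested were called), with 0 at an unadjusted p under 0.05 and 0 by DESeq2, and the core median was 0.40. That median was -0.27 without WT replicate 2 at 25 min and 1.06 without WT replicate 2 at 0 min, where 1 gene was called; without WT replicate 1 at 0 min it was 0.20 and 0 were called. WT replicate 1 had the low core sum at 25 min that both array replicates had, and WT replicate 2 did not.

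At 45 to 60 min against 0 min the WT core median was -0.03, with 0 of 10 genes called by edgeR (1.58% of all genes tested were), 1 at an unadjusted p under 0.05 and 0 by DESeq2. Without WT replicate 1 at 0 min this median was -0.33 and 1 gene was called. Against 25 to 30 min the core median was -0.49 and 0 of 10 were called by edgeR (10.3% of all genes tested were), 0 at an unadjusted p under 0.05 and 0 by DESeq2. This median was 0.25 without WT replicate 2 at 25 min and -0.88 without WT replicate 1 at 25 min, where 1 gene was called, and 2 were called without WT replicate 1 at every time. The WT time course over all 8 later times called 0 of 10 (8.81% of all genes tested), with 0 at an unadjusted p under 0.05.

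Whether the fall at 25 to 30 min differed between the strains was tested as an interaction. By edgeR, 0 of 10 genes were called (0.14% of all genes tested were), with all 8 core histone genes at an unadjusted p under 0.05 and adjusted p from 0.0522 to 0.146. The difference in log2 change, array minus WT, was -2.86 for HTA1 (95% interval -4.27 to -1.46, adjusted p = 0.0522), -2.77 for HHT1 (adjusted p = 0.0664) and -3.27 for HTB1 (adjusted p = 0.0707), again by edgeR. HTZ1 (0.07) and HHO1 (-0.37) had no difference at an unadjusted p under 0.05. With culture as a block, 7 of 10 were called, and DESeq2 called 6. The outcome rested on WT libraries. Without WT replicate 2 at 0 min 8 were called, and the core median of -2.54 became -3.29. Without WT replicate 1 at 0 min the core median was -2.27, and without WT replicate 3 it was -2.21. Of the 25 min libraries, leaving out WT replicate 1 gave a core median of -2.87 and leaving out WT replicate 2 gave -1.64. The covariate for the share of reads in genes brought it to -1.25 with 0 called. For the later step, 45 to 60 against 25 to 30 min, edgeR called 0 of 10 genes (0% of all genes tested), with 7 at an unadjusted p under 0.05. Its core median, array minus WT, was 1.62, and this was 0.53 without WT replicate 2 at 25 min. DESeq2 and the block fit called 1 each.

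Averaged over the 9 times, the core median of the strain difference was -0.07 (array minus WT), and HHO1 was the only histone gene called by edgeR. It went from 81.2 to 166 CPM in WT (median 125, n = 19) and from 68.7 to 117 CPM in the array strain (median 103, n = 18). The H1 transcript was lower in the array strain by 1.22-fold with overlapping libraries (log2 difference -0.29, SE 0.08, edgeR adjusted p = 0.00892). Beside this 1 of 10, 28.1% of all genes tested were called, and libraries of 1 culture are not independent. With culture as a random effect in limma-voom, 0 were called and HHO1 had an adjusted p of 0.0724; without array replicate 1 it was also 0. HHT2, at 20.1 to 112 CPM in WT and 7.26 to 94.9 CPM in the array strain, had a log2 difference of -0.51 (SE 0.20, edgeR adjusted p = 0.0538), and DESeq2 called it (adjusted p = 0.0392). HTZ1 had 91.4 to 177 CPM in WT and 97.8 to 178 CPM in the array strain, a log2 difference of 0.09 (95% interval -0.09 to 0.27).

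Each paralog's share of its pair's counts was followed over time. Counts of 3′ tags do not scale with gene length, and it is not known whether reads in 3′ UTRs were counted, so a share is not the ratio of the transcripts, and only its change between libraries is described. In the array strain, HTA1 made up 60.4% and 61.3% of the HTA1 and HTA2 counts at 0 min, 34.4% to 44.8% at 25 to 30 min and 46.2% to 58.8% at 45 to 60 min. The late and middle libraries did not overlap (log2 ratio 0.18 ± 0.33 late and -0.61 ± 0.26 middle, SD, n = 4 each). The exact two-sided permutation p was 0.0286, the smallest this design allows, and 0.114 after adjustment over 8 tests. The 4 libraries of each window come from 2 cultures at 2 times and are not independent, and the test was added after the fold changes had been seen. In WT, the share was 15.3% in replicate 1 at 0 min and 37.0% in replicate 1 at 25 min, the libraries with the lowest core sums, and 41.2% to 58.5% in the other 17. HHT1 made up 59.3% to 85.2% of the H3 counts in WT and 70.1% to 90.3% in the array strain, and HHF1 6.60% to 33.6% and 19.6% to 33.4% of the H4 counts. HTB1 made up 31.1% to 81.0% of the H2B counts in WT and 32.2% to 70.5% in the array strain. For the HHT1 share in WT, late against middle also gave an exact permutation p of 0.0286 (0.114 adjusted), and the other 6 tests had larger p.

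**Figure D5:**
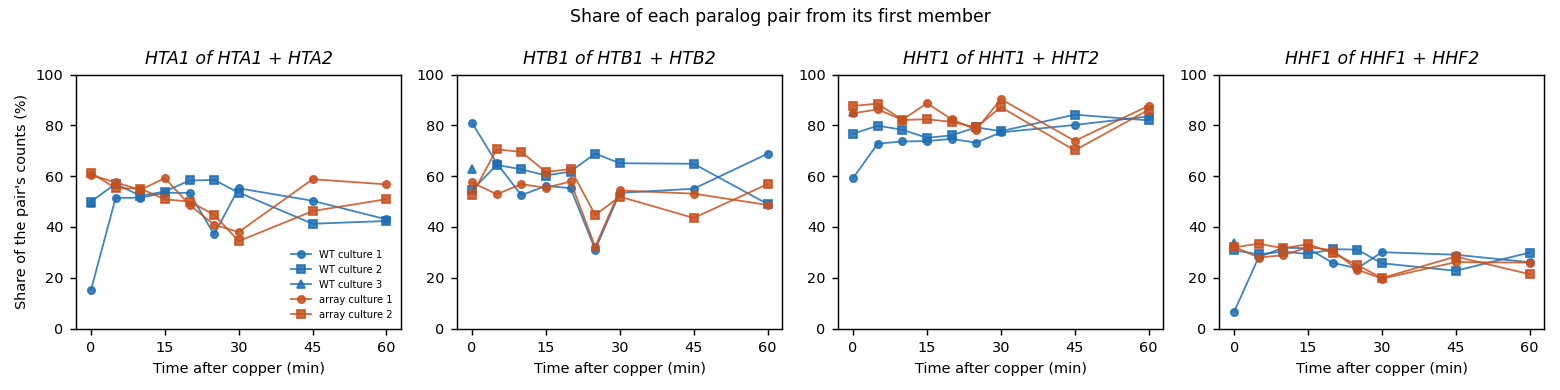
Share (%) of each paralog pair's counts that came from the first-named gene, against time after copper (min), for every library, with WT in blue and the array strain in orange. In the array strain the HTA1 share goes from 60.4% and 61.3% at 0 min to 34.4% to 44.8% at 25 to 30 min, and the share of WT replicate 1 at 0 min is 15.3%.

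These shares are uncertain where paralogs are alike. The coding sequences were 93.7% identical for HTA1 and HTA2 (399 bases, 2 amino acid differences), 87.9% for HTB1 and HTB2 (396 bases, 4 amino acid differences), 93.2% for HHT1 and HHT2 (411 bases, no amino acid difference) and 97.4% for HHF1 and HHF2 (312 bases, no amino acid difference). HHF1 and HHF2 share a run of 74 identical bases within their last 150. Reads that fit both copies can be lost as not unique, a class that held 6.17% to 13.6% of the listed reads.

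The 8 core histone genes moved together. Over the 18 means of strain and time, the 28 pairs among them had a Pearson r of log2 CPM from 0.735 to 0.980 (median 0.906). HTZ1 had an r of 0.252 to 0.467 with them and HHO1 -0.191 to 0.194. All values share the same libraries and depth, so they are descriptions. Ranked by likeness to the mean core profile among all genes tested, HTZ1 took rank 1491 and HHO1 rank 2362; the core histone genes make up the profile, so their own ranks are not given. The 8 other genes most like that profile were CTS1 (r = 0.979), the chitinase of cell separation, CHO1 (0.972), for phosphatidylserine synthesis, ERG5 (0.953), for ergosterol synthesis, and CWP2 (0.945), a cell wall protein. VMA3 (0.945), a proton pump subunit of the vacuole, VTC4 (0.944), for polyphosphate synthesis, GAS1 (0.940), a cell wall glucan enzyme, and SAH1 (0.939), of the methyl cycle, completed them. None of these 8 is a histone gene. In the array strain at 25 to 30 min they had log2 changes from -2.84 to -0.99, of which CHO1, VMA3 and GAS1 were called, beside 2.14% of all genes tested. They were chosen by likeness over means that include these groups, so their fall follows from the choice.

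Genes of the same cell cycle step were set beside the histones. Of 30 G1/S and DNA replication genes, 22 had estimates above 0 and 8 below in the array strain at 25 to 30 min (median log2 change 0.19). Called were 1 higher and 0 lower, beside 2.14% of all genes called. The called gene was SWI4, the DNA-binding subunit of SBF (log2 change 1.27, SE 0.22, edgeR adjusted p = 0.00279). The summed level of this list was 3741 to 4450.4 CPM in the 4 libraries in which the core histone sum was lowest in the array strain, and 3321 and 3520 CPM at 0 min. At 45 to 60 min against 25 to 30 min, 1 of 30 was called higher in the array strain, the S-phase cyclin gene CLB6 (log2 change 1.32, SE 0.26, edgeR adjusted p = 0.0265), beside 0.601% of all genes called. In WT 9 of 30 were called higher, beside 10.3% of all genes called, and 28 had estimates above 0. The genes called in WT included SMC3, of cohesin (0.77, SE 0.14), RAD27, the flap nuclease of Okazaki fragments (0.79, SE 0.15), and POL1, the DNA polymerase alpha subunit (0.74, SE 0.16). In WT at 45 to 60 min the list summed to 4272 to 4524 CPM, above the 2911 to 3749 CPM of 0 min, with 6 of 30 called higher beside 1.58% of all genes called, while the core histone sum was 1232 to 1749 CPM. The count over all genes in that comparison was 79, and it went from 14 to 824 when libraries were left out. Over the 37 libraries, the log2 sums of this list and of the core histones had a Pearson r of -0.472 (Spearman -0.474).

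Of 24 regulators and chaperones of histones, 0 were called in the array strain at 25 to 30 min (median log2 change 0.14), when their summed level was 4064 to 4498 CPM against 3905 and 4031 CPM at 0 min. In WT at 10 to 20 min, when 13.6% of all genes were called, 5 of 24 were called lower: CHZ1, a chaperone of H2A.Z and H2B (-0.65, SE 0.15), ASF1, the H3-H4 chaperone (-0.61, SE 0.16), RLF2 (-0.60, SE 0.19) and CAC2 (-0.83, SE 0.27), of chromatin assembly factor CAF-1, and SPT6 (-0.47, SE 0.15), a chaperone of transcription. The WT sum of this list at 0 min was 5355, 3831 and 4387 CPM (replicates 1, 2 and 3), beside 3560 to 3950 CPM at 10 to 20 min. In WT at 45 to 60 against 25 to 30 min, 3 of 24 were called higher, beside 10.3% of all genes called. They were RLF2 (0.66, SE 0.19), ASF1 (0.53, SE 0.16) and HIF1, a partner of the histone acetyltransferase Hat1 (0.60, SE 0.19). Averaged over the 9 times, ASF1 (0.32, SE 0.08), HIF1 (0.26, SE 0.09) and HIR1 (0.20, SE 0.06), a subunit of the HIR repressor, were higher in the array strain and YTA7 (-0.23, SE 0.07), which acts at histone genes, was lower. These 4 of 24 stand beside 28.1% of all genes called, and with culture as a random effect in limma-voom 1 of the 4, ASF1, was called (adjusted p = 0.0173). The activators SPT10 and SPT21 were called in none of the comparisons of windows or strains. Over the 37 libraries, the log2 sums of this list and of the core histones had a Pearson r of -0.817 (Spearman -0.842), a description that shares depth and libraries with the correlation to reads in genes.

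For the other phases, 0 of 12 G2/M genes and 0 of 12 M/G1 genes were called in the array strain at 25 to 30 min, with median log2 changes of 0.21 and 0.27. The M/G1 genes went both ways, with CTS1 at -1.30 (edgeR adjusted p = 0.0587), and over the 37 libraries their log2 sum and that of the core histones had a Pearson r of 0.501 (Spearman 0.440). In the same comparison 1 of 6 a-cell genes, STE2, the alpha-factor receptor, was called lower (log2 change -1.30, SE 0.21, edgeR adjusted p = 0.00218), beside 2.14% of all genes called. MFA1 (-1.54), AGA2 (-1.04) and MFA2 (-0.57) were lower and ASG7 (0.97) and BAR1 (0.01) higher without a call. The a-cell sum of the array strain went from 2210 and 2399 CPM at 0 min to 995 to 1591 CPM, the lowest median of its windows. In WT at 25 to 30 min, when 10.2% of all genes were called, 4 of 12 M/G1 genes were called higher, among them ASH1 (1.43, SE 0.25), a daughter-cell repressor, and SIC1 (0.69, SE 0.19), an inhibitor of S-phase cyclin kinase. Of the 12 G2/M genes 1, the polo kinase gene CDC5, was called lower (-0.65, SE 0.20). Averaged over the 9 times, 14 of 30 G1/S genes were higher and 1 lower in the array strain and 8 of 12 G2/M genes were lower, beside 14.2% of all genes called higher and 14% called lower. The libraries of a strain come from 2 cultures sampled over time and, at 0 min in WT, 1 more. With culture as a random effect in limma-voom, 10 of the G1/S genes were higher and 1 lower, and 6 of the G2/M genes were lower, beside 8.67% and 7.77% of all genes.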

How the data were processed

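The authors deposited raw counts per gene for 37 QuantSeq 3′ libraries of 2 yeast strains. Per the submitters' processing notes, FastQC 0.11.9, STAR 2.7.10a, SAMtools 1.10, HTSeq 2.0.2 and build R64 were used; the strand setting and the annotation release are not given in the sources used here. Reads of antisense or overlapping genes may therefore be mixed. No molecular identifiers are mentioned, so floors cover counting error only. The 5 summary rows of reads outside single genes were left out; 36.6% to 54.6% of the listed reads fell in genes.

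Counts were tested with edgeR 4.0.16 (R 4.3.3): filterByExpr with a minimum count of 10, TMM, 1 fit of 18 groups of strain and time with 19 residual degrees of freedom, quasi-likelihood tests, Benjamini-Hochberg adjustment over 4995 genes, called at adjusted p under 0.05. A window (10 to 20, 25 to 30, 45 to 60 min) is the mean of its group coefficients. Replicates may be technical in part, and p-values then measure only the spread between these libraries. Alternatives were DESeq2 1.42.0, its size factors in edgeR, no filter, culture as a block (fixed, or random with limma-voom 3.58.1), the mean of 0 and 5 min as control, and each library or replicate left out. Single libraries after 0 min, the share of reads in genes as a covariate and the paralog ratios (0.5 counts added, exact permutation) were added after seeing the data.

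The growth note describes cultures sampled over time, which is where the pairing comes from; the difference between replicates 1 and 2 was correlated between times (36 time pairs per strain), with a median r of 0.0948 for WT and 0.0730 for the array. No 2 replicates of a group agreed within counting noise (20 pairs, chi-square per degree of freedom 1.37 to 35.3). Of 6464 locus tags, 6461 matched the RefSeq R64 annotation. All 10 histone genes were named; from the lists, called members were named, up to 5 with the smallest p in each direction; the 8 genes of nearest profile were named by correlation. The members and lists were chosen with earlier results of these data known. The tests were checked on simulated counts drawn independently for each library, with no effect of culture and no shift in reads in genes. That check does not cover these features of the data.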

Additional observations from a re-analysis of the deposited data

How the results depend on the processing

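Calls of histone genes near the threshold depended on the fit, and the cause was not tested. In the array strain at 25 to 30 against 0 min, 7 alternatives kept all libraries. HTA1 and HHT1 were called in 6 of them, and HHT2 and HHF1 in 5. HHF2 was called in 4, HTB1 and HTB2 in 3, HTA2 in 2, and HTZ1 and HHO1 in 0. For the array strain at 25 to 30 against 0 min, 4 were called, 7 with DESeq2, 8 with culture as replicate block, 8 with the mean of 0 and 5 min as control, 0 with the share of reads in genes as covariate, and 0 to 8 over the fits that left out libraries (more without WT libraries, which enter through the shared spread). For WT at 10 to 20 min, 0 were called, 1 with culture as random effect, 2 with the covariate, and 0 to 6 with libraries left out; HTA2 turned from 0.23 to -0.020 with culture as replicate block, and with libraries left out it ranged from -0.034 (without WT replicate 3) to 0.55. For WT at 45 to 60 min the covariate called 1. The interaction at 25 to 30 min called 0, 6 with DESeq2, 7 with the replicate block, 4 with the random effect and 0 to 8 with libraries left out; the interaction of the later step called 0, 1 with DESeq2, 1 with the replicate block and 0 to 7. The strain difference called 1, 2 with DESeq2, 2 with its size factors, 2 without a filter, 2 with the covariate, 0 with the random effect and 0 to 3; it could not be fitted with a fixed block, since cultures lie within strains, and DESeq2 was not run for the time courses. The array time course called 0, 2 with the replicate block and 0 to 8. With libraries left out, the other counts were 0 to 1 (WT at 25 to 30 and at 45 to 60 against 0 min), 0 (array at 10 to 20 min), 0 to 2 (array at 45 to 60 against 0 min, and WT at 45 to 60 against 25 to 30 min), 0 to 6 (array at 45 to 60 against 25 to 30 min) and 0 to 5 (WT time course). The covariate also turned HTZ1 in the array strain at 25 to 30 min to 0.021, HTB2 at 45 to 60 against 0 min to 0.052, and the later interaction of HTB2 to -0.21 and of HHF1 to -0.31. The replicate block changed no other count of histone calls.

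Counts over all genes moved too. For the array strain at 25 to 30 min, 107 genes were called, 170 with DESeq2, 350 with the block, 492 with 0 and 5 min as control, 199 with the covariate and 0 to 968 with libraries left out. For WT at 10 to 20 min, 679 were called, 276 with 0 and 5 min as control and 1200 with the covariate. For WT at 25 to 30 min, 511 were called, 333 with 0 and 5 min as control and 1073 with the covariate, and at 45 to 60 min, 79, 138 and 659. The array strain had 3 at 10 to 20 min (15 with DESeq2, 29 with the block, 84 with the covariate), 9 at 45 to 60 min (22, 29 and 50) and 30 at 45 to 60 against 25 to 30 min (52, 79 and 62). The interactions had 7 and 0, with 259 and 133 by DESeq2 and 772 and 179 with the block, the first 0 with the covariate. The strain difference had 1405, and 821 with the random effect. The time courses had 440 (WT) and 31 (array), with 801 and 90 under the covariate and 126 for the array under the block. HHT2 had as few as 3 counts in a library.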
